A study of Mus musculus with 9 samples.

Results

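T cells and natural killer (NK) cells are lymphocytes that descend from haematopoietic stem and progenitor cells. The accessible chromatin at 9 genes of these lineages was described in mouse LSK cells, the lineage-negative, Sca-1-positive, Kit-positive fraction that holds stem cells and early progenitors. The genes were Gata3, Bcl11b, Tbx21, Eomes, Cd3e, Cd247, Zap70, Il2rb and Klrb1c. A peak was taken as belonging to a gene when its summit lay inside the gene's GRCm38 span, or within 50 kb of it with that gene as the nearest protein-coding one. By this rule 189 of 328883 peaks belonged to the 9 genes, and merged across libraries they made 51 of 76253 accessible regions, 30 inside the gene spans and 21 outside them.

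In T and NK lineage biology, transcription factors are set up first and the receptor machinery follows. Gata3 and Bcl11b act in commitment to the T lineage in the thymus, while the T-box factors Tbx21 (T-bet) and Eomes direct NK cells and effector T cells. Cd3e, Cd247 (CD3 zeta) and Zap70 carry the signal of the T cell receptor, Il2rb is the shared beta chain of the interleukin-2 and interleukin-15 receptors, and Klrb1c encodes the NK receptor NK1.1. In stem and progenitor cells, regulatory elements of lineage genes can be open before the genes are expressed.

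The libraries came from an ATAC-seq experiment, in which the Tn5 transposase cuts open DNA, on 50000 LSK cells each. The groups were WT (2 libraries), Bcat_KO (β-catenin, the effector of canonical Wnt signalling, 2 libraries), HOXA9_KO (a homeobox factor of stem and progenitor cells, 2 libraries), PRMT1_KO (an arginine methyltransferase, 2 libraries) and dKO (β-catenin with Hoxa9, 1 library, so without replicate error). Mutants are KO in the titles but knockdown in the genotype tags; the alleles, Cre driver, age, sex and strain are not given. The series text names Prmt1KO primary transplanted mice as a source of the LSK cells and says nothing of the other groups, and it is not stated that replicates are different animals, so the spread between them may be technical.

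The paired libraries held 28325 to 45460 peaks and the dKO held 10639. Background depth, inferred from fold and p, was 6.29 to 11.2 reads per kb in the paired libraries, lowest in both WT libraries, and 2.41 in the dKO, so a missing peak can mean a region not detectable at that depth. Each paired list was therefore shortened to its 28325 strongest peaks by the authors' −log10 p, called the strongest list here; rank 1 is the strongest peak of a library. At that list end the weakest peak had a −log10 p of 5.79 and 3.29 in WT replicates 1 and 2 and of 7.33 to 9.09 in the 6 mutant libraries. Of 10 LSK marker genes, 10 had a region in all 8 strongest lists, against 1 of 8 mature T, 1 of 8 mature NK, 1 of 6 mature B, 2 of 6 mature myeloid and 3 of 6 erythroid marker genes. WT libraries listed 0 peaks on the male-specific part of chromosome Y and the single mutants 12 to 16, so sex and genotype cannot be told apart in the comparisons with WT. Peaks at Ctnnb1, Hoxa9 and Prmt1 do not test the deletions, since which part was deleted is not stated; Prmt1 had 1 region in every library, PRMT1_KO included.

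The windows at the annotated gene starts held little of this accessibility. Regions at the 5′ end of the Cd247 and Bcl11b spans and just inside Eomes fell outside these windows and are given below. RefSeq windows from 250 bases before to 50 bases after an annotated start (GRCm38.p6) covered 10 starts of 8 of the genes, with none for Il2rb. Only the Gata3 window was overlapped by a listed peak, in WT replicates 1 and 2 and in HOXA9_KO replicate 1. By comparison, 55.8% of the 21263 protein-coding starts were overlapped in at least 1 strongest list and 41.6% in all 8. The Gata3 window was GC-rich, at 67.3% GC with 22 CpG sites, against medians of 56.3% and 13 over all starts. The Tbx21 window, with 62.0% GC and 21 CpG, had no listed peak, and neither had the Bcl11b (43.0% and 9), Cd3e (56.7% and 8) and Klrb1c (48.0% and 1) windows.

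Windows of 4 of the genes are printed 5′ to 3′ on the gene's strand, to show the one start with a peak beside 3 without. Capitals mark letters that match GATAA (GATA factors), CTTTGA (TCF/LEF, the partners of β-catenin) or TGTGG (RUNX factors) on either strand, which occur in 22.5%, 14.4% and 53.5% of all start windows. None of these matches overlaps another. The windows are chr2:9878551-9878850, minus strand, for Gata3, chr12:108003365-108003664, minus strand, for Bcl11b, chr9:45009562-45009861, minus strand, for Cd3e and chr6:128788592-128788891, minus strand, for Klrb1c.
Gata3: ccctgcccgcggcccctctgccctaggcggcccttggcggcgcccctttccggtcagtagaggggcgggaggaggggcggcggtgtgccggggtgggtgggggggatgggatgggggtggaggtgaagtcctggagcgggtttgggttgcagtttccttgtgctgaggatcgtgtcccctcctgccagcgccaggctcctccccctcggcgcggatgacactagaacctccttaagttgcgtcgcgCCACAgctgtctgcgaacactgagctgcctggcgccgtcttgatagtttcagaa
Bcl11b: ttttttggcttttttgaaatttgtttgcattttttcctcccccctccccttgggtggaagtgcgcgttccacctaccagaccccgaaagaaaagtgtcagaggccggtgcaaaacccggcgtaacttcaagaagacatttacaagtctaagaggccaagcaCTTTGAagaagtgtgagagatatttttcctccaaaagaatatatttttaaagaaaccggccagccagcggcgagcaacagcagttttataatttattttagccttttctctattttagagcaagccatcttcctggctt
Cd3e: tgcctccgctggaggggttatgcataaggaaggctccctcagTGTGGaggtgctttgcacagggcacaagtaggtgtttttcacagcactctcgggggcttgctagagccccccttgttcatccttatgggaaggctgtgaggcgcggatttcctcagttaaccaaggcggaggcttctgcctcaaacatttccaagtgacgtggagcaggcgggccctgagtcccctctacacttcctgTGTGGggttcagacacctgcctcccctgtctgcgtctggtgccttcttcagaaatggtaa
Klrb1c: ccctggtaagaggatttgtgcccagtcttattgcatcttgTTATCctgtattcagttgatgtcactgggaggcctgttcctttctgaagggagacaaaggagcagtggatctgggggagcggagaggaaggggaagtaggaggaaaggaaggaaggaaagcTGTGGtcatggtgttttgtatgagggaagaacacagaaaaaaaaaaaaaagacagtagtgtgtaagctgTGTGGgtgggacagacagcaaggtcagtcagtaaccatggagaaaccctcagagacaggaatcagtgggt
The Gata3 window held 1 RUNX match, the Bcl11b window 1 TCF/LEF match, the Cd3e window 2 RUNX matches, and the Klrb1c window 1 GATA and 2 RUNX matches. A match describes letters only and shows no binding.

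Across the whole set, most regions were weak and were seen in few libraries. A peak was found in 1 library alone for 21 of the 51 regions (41.2%), against 33.0% of all regions, and in all 8 paired libraries for 10 (19.6%), against 25.1%. In the strongest lists, 27 regions appeared at least once and 24 never, and 8 of the 27 (29.6%) were in all 8, against 34.0% of all regions. The median fold over local background of the member peaks was 4.16 and 5.02 in the WT libraries, where all peaks had medians of 5.68 and 6.31, and lay below the median of all peaks in each of the 9 libraries. In a mixed population, few cells with open chromatin and little opening per cell cannot be told apart.

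The regions were spread unevenly over the genes. Gata3 had 12, Cd247 10, Klrb1c 9, Bcl11b 6, Eomes 5, Il2rb 4, Zap70 3, Tbx21 2 and Cd3e 0. Klrb1c was represented most steadily, since all 9 of its regions entered a strongest list and 4 were in all 8, while Gata3 and Cd247 had 2 each in all 8. No region of Bcl11b, Tbx21, Eomes, Zap70 or Il2rb was in all 8 strongest lists. At least 1 region in all 8 lists was thus present at 3 of the 9 genes (33.3%), against 50.6% of all protein-coding genes.

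The number of these regions in the strongest list differed little between groups. There were 15 and 17 in WT, 16 and 12 in HOXA9_KO, 14 and 16 in Bcat_KO, and 14 and 13 in PRMT1_KO. The means were 16.0 ± 1.41 in WT, 14.0 ± 2.83 in HOXA9_KO, 15.0 ± 1.41 in Bcat_KO and 13.5 ± 0.707 in PRMT1_KO (SD, n = 2 each). The values of Bcat_KO and HOXA9_KO overlapped those of WT, and those of PRMT1_KO lay 1 or more below both, a step of the size of the spread within a pair. In the lists as deposited WT had the lowest mean, 20.5 against 23.0 to 24.0 in the mutants, whose lists are longer. The libraries overlapped there, with 24 and 17 in WT and 20 to 28 in the mutants. The dKO list held 3 member regions.

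**Figure D1:**
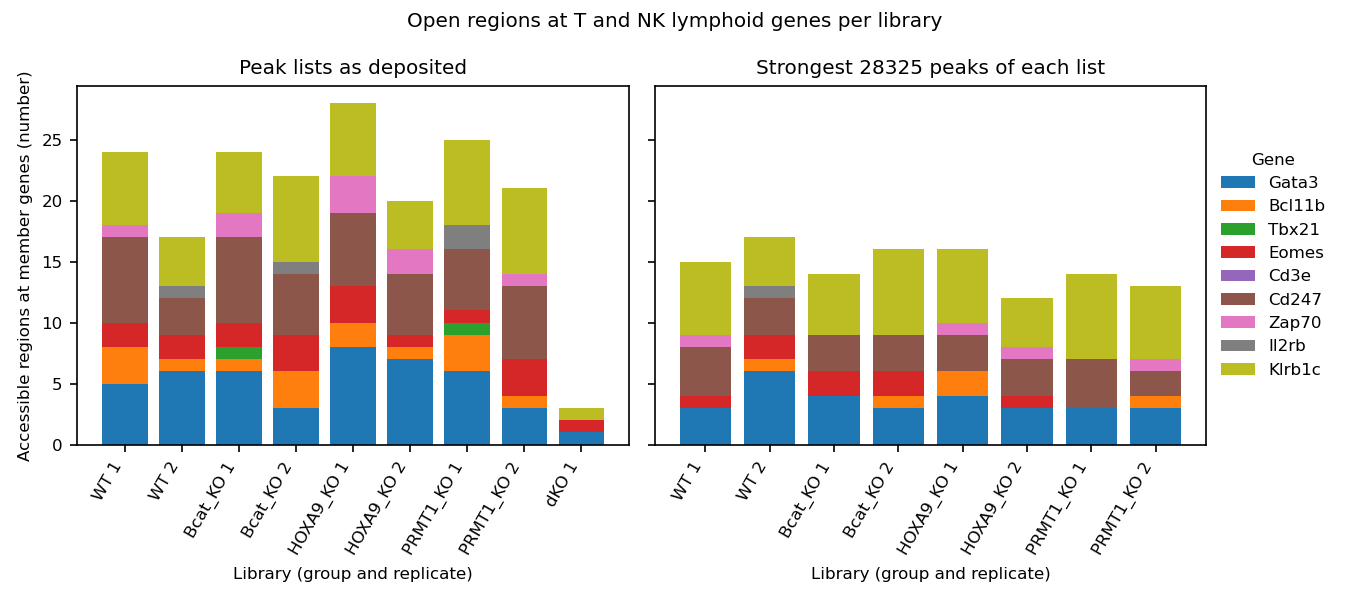
Accessible regions at the 9 T and NK genes in each library, stacked by gene, in the lists as deposited (left) and in the 28325 strongest peaks of each paired library (right). Klrb1c, Gata3 and Cd247 fill most of each bar, Cd3e gives none, and at equal list length the 8 bars lie between 12 and 17.

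Gata3, the zinc-finger factor of T lineage commitment, carried a region that ranked high in all 8 paired libraries. That region (chr2:9879221-9879955) lay 1.09 kb upstream of the annotated start, inside the gene span, and was present in all 9 libraries. It ranked 3262 and 5492 in WT, 2411 and 2506 in HOXA9_KO, 2438 and 2681 in Bcat_KO, and 2675 and 2644 in PRMT1_KO, with 5687 of 10639, the middle of the list, in the dKO. Its fold over local background was 9.55 and 8.01 in WT, 11.3 and 12.3 in HOXA9_KO, 11.2 and 12.4 in Bcat_KO, 12.2 and 12.9 in PRMT1_KO, and 5.1 in the dKO. All 6 mutant libraries ranked it above both WT libraries and the 6 lay close together. Group means of the fold were 8.78 ± 1.09 in WT, 11.8 ± 0.707 in HOXA9_KO, 11.8 ± 0.849 in Bcat_KO and 12.6 ± 0.495 in PRMT1_KO (SD, n = 2 each). Ranks were turned into normal scores, on which higher is stronger, and fitted with limma over the 15951 regions found in all 8 strongest lists. The score difference from WT was 0.31 ± 0.18 (SE) in Bcat_KO (limma adjusted p = 0.412), 0.33 ± 0.18 in HOXA9_KO (limma adjusted p = 0.369) and 0.29 ± 0.18 in PRMT1_KO (limma adjusted p = 0.5), so none passed 0.05. Without WT replicate 2 the differences were 0.14, 0.16 and 0.12 in Bcat_KO, HOXA9_KO and PRMT1_KO, and without WT replicate 1 they were 0.48, 0.5 and 0.45. Fewer reads stood behind the WT values, with 63 and 38 reads at the summit against 71 to 86 in the mutants.

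The start of Gata3 itself was covered by a far weaker region (chr2:9878417-9878959). Its rank was 26851 and 27534 in the WT libraries and 32952 in HOXA9_KO replicate 1, at folds of 3.14, 2.87 and 3.07, and the other 6 libraries listed no peak there. Both WT peaks fell near the end of the strongest list, with 20 and 13 reads at the summit. HOXA9_KO replicate 1 also had 20 reads there, and its −log10 p of 6.01 lay below the 7.33 at its own list end but above the 5.79 of WT replicate 1.

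Further Gata3 regions included one beyond the 5′ end of the gene span, 10.8 kb upstream of the start, where the summit also lies in the lncRNA 9230102O04Rik (chr2:9889000-9890094). It ranked 17602 and 18681 in WT, 16305 and 21889 in HOXA9_KO, 17086 and 14392 in Bcat_KO, and 20532 and 17673 in PRMT1_KO. Against WT, both Bcat_KO ranks were above both WT ranks while HOXA9_KO and PRMT1_KO overlapped WT, and the Bcat_KO ranks were also above both PRMT1_KO ranks. Bcat_KO minus WT gave a score difference of 0.22 ± 0.23 (SE, limma adjusted p = 0.661). An intragenic region 7.23 kb downstream of the annotated start was present in all 8 paired libraries, at ranks from 12793 in HOXA9_KO replicate 1 to 29815 in WT replicate 1. The other 8 Gata3 regions were found in 1 to 5 paired libraries.

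**Figure D2:**
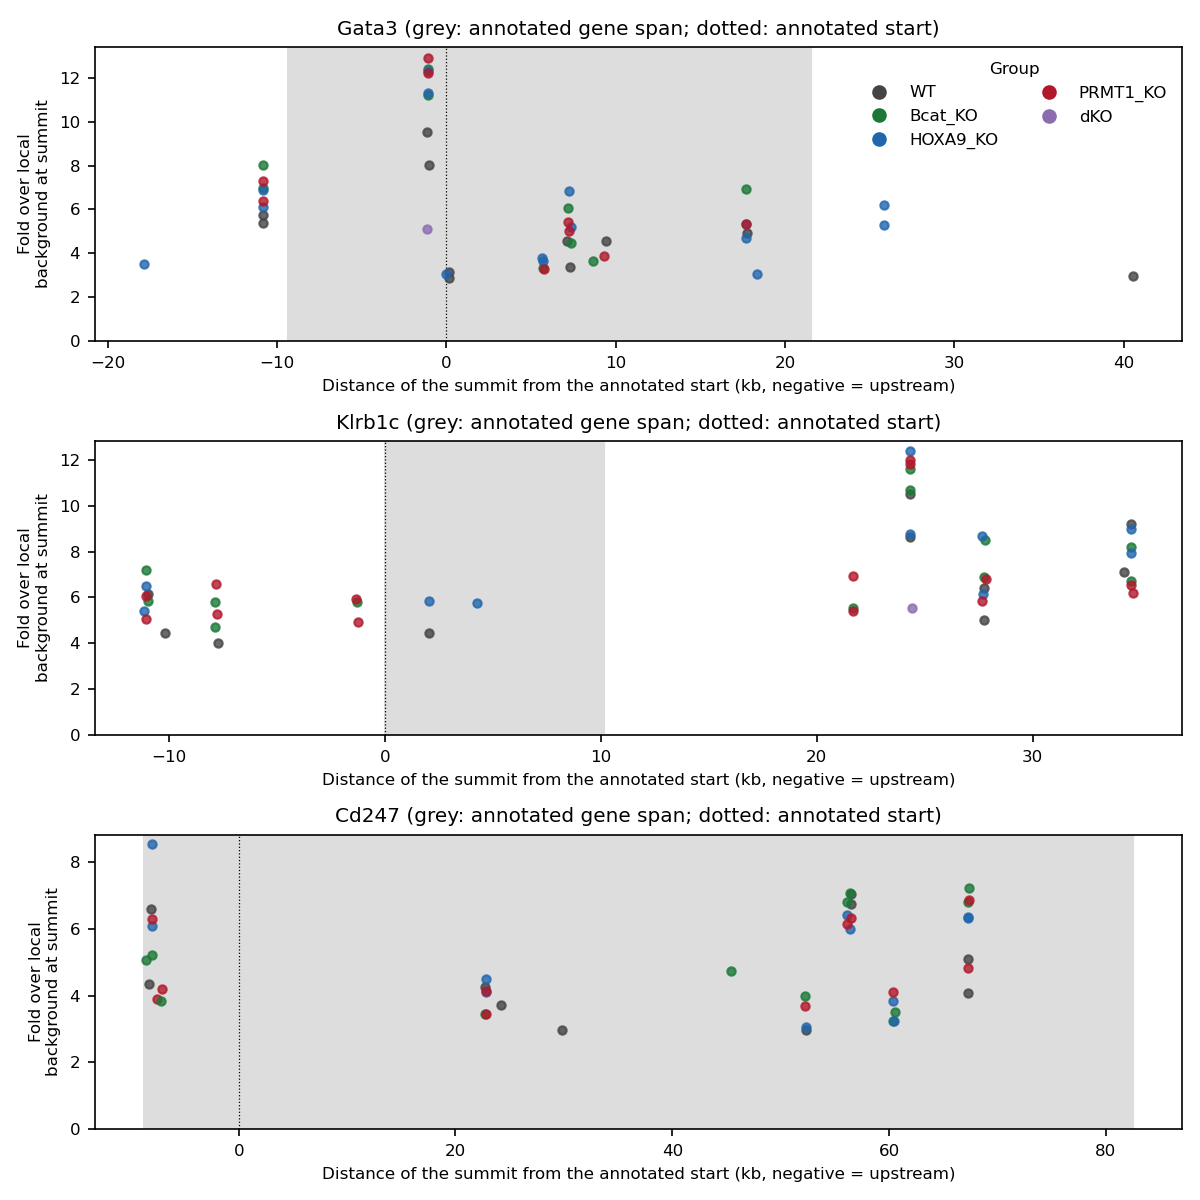
Fold over local background of each listed peak at Gata3, Klrb1c and Cd247 against the distance of its summit from the annotated start in kb, coloured by group, with the gene span in grey. The strongest Gata3 peaks stand just upstream of the start, the strongest Klrb1c peaks 24.3 kb downstream of the start and outside the gene, and those of Cd247 8.1 kb upstream and 56.5 and 67.4 kb downstream of the start.

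Bcl11b, a zinc-finger factor required for T cell commitment, had 6 regions, all weak or irregular. The region at the 5′ end of its span (chr12:108003938-108004296), 0.693 kb upstream of the annotated start, ranked 29146 and 24902 in WT, 33561 in Bcat_KO replicate 1, 28180 and 37479 in HOXA9_KO, and 35414 and 26993 in PRMT1_KO. It was thus missing only in Bcat_KO replicate 2 among the paired libraries, yet it entered 3 strongest lists, 1 each of WT, HOXA9_KO and PRMT1_KO. An intronic or exonic place is not assigned, since the annotation used gives gene spans. The highest ranked Bcl11b region (chr12:107998719-107999120), 4.46 kb downstream of the annotated start, ranked 34373 in WT replicate 1, 15794 in Bcat_KO replicate 2 and 23723 in HOXA9_KO replicate 1 and was listed nowhere else. The replicates of these 3 groups disagreed there.

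Tbx21, the T-box factor of type 1 effector cells and NK maturation, had 2 regions, each in 1 library. Bcat_KO replicate 1 ranked one at 37293 with a fold of 3.89, and PRMT1_KO replicate 1 ranked the other at 38872 with a fold of 3.97. Neither entered a strongest list, and the summits had 8 and 10 reads, close to the 6 to 7.5 reads of the weakest listed peaks.

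Eomes, the related T-box factor of NK and memory T cells, had 1 recurrent region just inside the gene and 1 beyond its 3′ end. The first (chr9:118478570-118479404), 0.842 kb downstream of the start, ranked 24700 and 20641 in WT, 29923 in HOXA9_KO replicate 1, 23811 and 27537 in Bcat_KO, and 31334 and 38841 in PRMT1_KO. Its fold was 4.56 and 5.02 in WT, 4.86 in HOXA9_KO replicate 1, 5.76 and 5.51 in Bcat_KO, and 4.82 and 3.46 in PRMT1_KO. It was therefore in the strongest lists of both WT and both Bcat_KO libraries and of no HOXA9_KO or PRMT1_KO library, although 3 of those 4 had a peak. The absolute evidence of WT overlapped that of these mutants, since the −log10 p was 6.78 and 7.24 in WT, 6.98 in HOXA9_KO replicate 1, and 7.79 and 4.33 in PRMT1_KO. In Bcat_KO the −log10 p was higher than all of these, at 9.7 and 8.93. The dKO listed this region at rank 5934 of 10639, with a fold of 5.31 from 7 reads. The second region (chr9:118489506-118490090), 3.69 kb beyond the gene, ranked 32222 and 16205 in WT, 34087 and 26225 in HOXA9_KO, 18166 and 27982 in Bcat_KO, and 31281 in PRMT1_KO replicate 2. Both Bcat_KO libraries had it in the strongest list and neither PRMT1_KO library did, while WT and HOXA9_KO were split. The other 3 Eomes regions were each in 1 library, among them one 0.153 kb from the start in PRMT1_KO replicate 2 at rank 39692.

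Cd3e, the epsilon chain of the CD3 complex, had no peak by the rule in any of the 9 libraries. Its neighbour Cd3d, of the same complex, had a region in all 8 strongest lists.

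Cd247, the zeta chain that carries most signalling motifs of the receptor, had 10 regions, all inside its span. The strongest (chr1:165844455-165845730), 56.5 kb downstream of the annotated start and within the lncRNA Gm32999, ranked 8873 and 8068 in WT, 11717 and 15882 in HOXA9_KO, 12958 and 12491 in Bcat_KO, and 15295 and 14814 in PRMT1_KO. Both WT libraries ranked it above all 6 mutant libraries, the reverse of the order at Gata3. The fold kept HOXA9_KO and PRMT1_KO below WT but not Bcat_KO. It was 6.75 and 7.06 in WT, 6.41 and 6.01 in HOXA9_KO, 6.8 and 7.09 in Bcat_KO, and 6.15 and 6.33 in PRMT1_KO. On the rank score the difference from WT was −0.40 ± 0.18 (SE) in Bcat_KO (limma adjusted p = 0.316), −0.49 ± 0.18 in HOXA9_KO (limma adjusted p = 0.215) and −0.61 ± 0.18 in PRMT1_KO (limma adjusted p = 0.217). None of the 3 passed. With the lists as deposited, in which all regions shifted up in the mutants by a median of 0.16 to 0.23, the differences were −0.06, −0.20 and −0.26 in Bcat_KO, HOXA9_KO and PRMT1_KO. Reads at the summit were 35 and 29 in WT and 28 to 36 in the mutants.

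Further into Cd247, 67.4 kb from the annotated start, a region (chr1:165855487-165856234) ranked 26344 and 18835 in WT, 19048 and 20001 in HOXA9_KO, 13759 and 16210 in Bcat_KO, and 16075 and 26574 in PRMT1_KO. Only Bcat_KO ranked it above both WT libraries, by a score of 0.88 ± 0.46 (SE, limma adjusted p = 0.372). That difference was 0.35 without WT replicate 1 and 1.40 without WT replicate 2. At the 5′ end of the span, 8.1 kb upstream of the annotated start, a region (chr1:165779978-165781330) had a peak in all 8 paired libraries. It ranked 13979 and 22214 in WT, 20902 and 14793 in HOXA9_KO, 26457 and 27804 in Bcat_KO, and 20697 and 34893 in PRMT1_KO. Both Bcat_KO ranks were below both WT ranks, while HOXA9_KO and PRMT1_KO overlapped WT. The other 7 Cd247 regions were found in 1 to 6 paired libraries and 2 of them entered a strongest list, once each.

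Zap70, the kinase recruited to the phosphorylated CD3 and zeta chains, had 3 regions. One lay 2.05 kb beyond its 3′ end (chr1:36784756-36785285) and ranked 27468 in WT replicate 1, 36317 in Bcat_KO replicate 1, 20883 and 22671 in HOXA9_KO, and 20487 in PRMT1_KO replicate 2. HOXA9_KO was the one group with it in both libraries, and the other paired groups each had it in 1. The other 2 Zap70 regions never entered a strongest list.

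**Figure D3:**
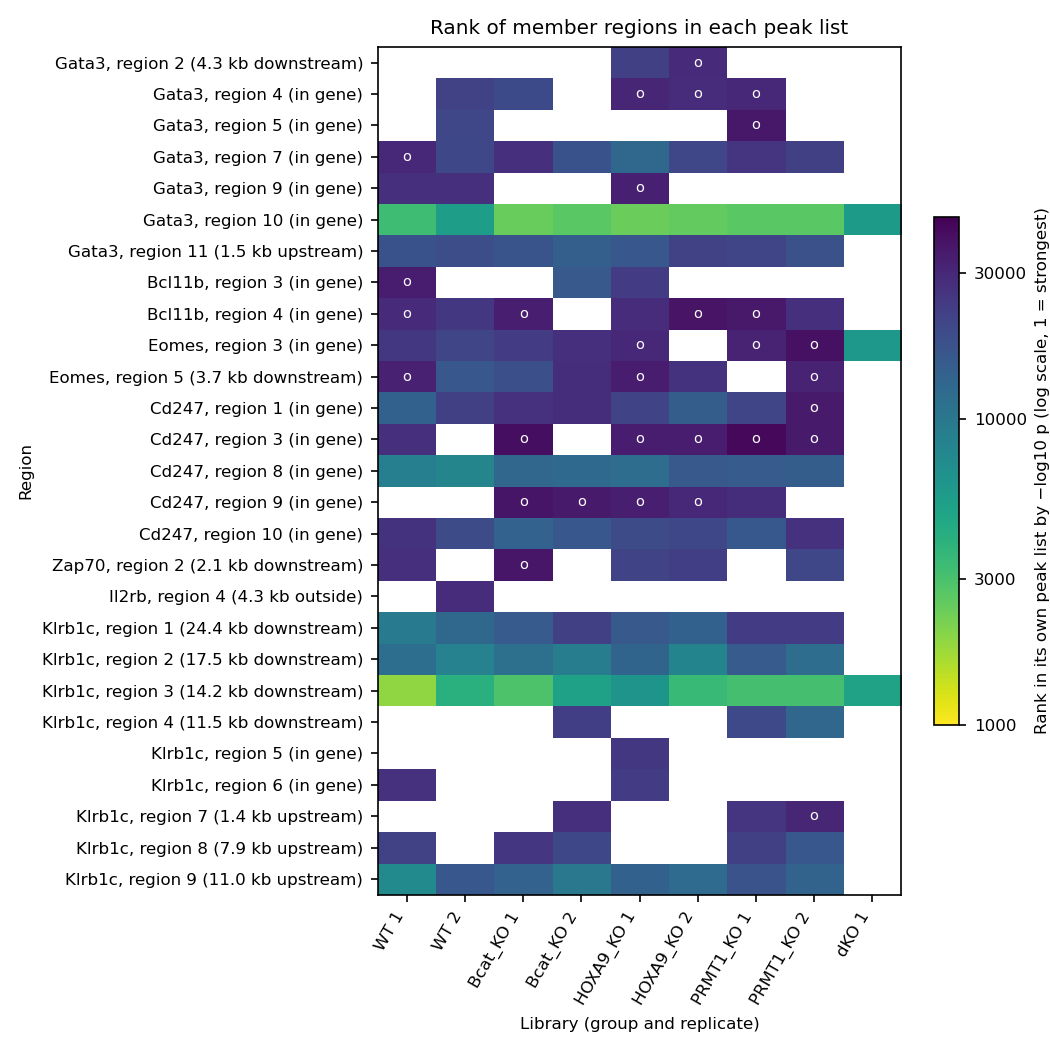
Rank of the 27 member regions that entered at least 1 strongest list, by library, on a log colour scale where yellow is strongest; white means no listed peak, a circle marks a peak outside the strongest 28325, and the dKO is ranked in its own list of 10639. The Gata3 region just upstream of the start and the Klrb1c region 14.2 kb downstream of the gene are filled in all 9 libraries, with high ranks in the 8 paired ones and ranks of 5687 and 5094 of 10639 in the dKO.

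Il2rb, the receptor chain through which interleukin-15 sustains NK cells, had 4 regions, each in a single library. Only one, in WT replicate 2 at rank 28099 with a fold of 3.35 from 6 reads, entered a strongest list, at its very end. The others were in Bcat_KO replicate 2 at rank 43756 and in PRMT1_KO replicate 1 at ranks 33207 and 43395.

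Klrb1c, the NK1.1 receptor gene, had its constant regions outside the gene, beyond its 3′ end and upstream of its start. The strongest (chr6:128763750-128764577), 14.2 kb beyond the 3′ end, ranked 1876 and 4028 in WT, 6319 and 3481 in HOXA9_KO, 2909 and 5112 in Bcat_KO, 3076 and 3091 in PRMT1_KO, and 5094 of 10639 in the dKO. Its fold was 10.5 and 8.64 in WT, 8.76 and 12.4 in HOXA9_KO, 11.6 and 10.7 in Bcat_KO, 12.0 and 11.8 in PRMT1_KO, and 5.52 in the dKO. The ranks of each mutant overlapped those of WT, and the score differences from WT ran from −0.33 to −0.05 (SE 0.23 each; limma adjusted p from 0.492 to 0.938). In Bcat_KO and PRMT1_KO the sign changed under other settings, to 0.01 and 0.11 with the lists as deposited. Klrb1c belongs to a cluster of related receptor genes, and how reads that map to several places were treated is not given in the sources used here.

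A second region, 24.4 kb beyond the 3′ end (chr6:128753924-128754584), was ranked lower than in WT in all 6 mutant libraries of the strongest lists. It ranked 9373 and 12598 in WT, 15730 and 14112 in HOXA9_KO, 15333 and 22371 in Bcat_KO, and 23379 and 23259 in PRMT1_KO. Its fold was 9.19 and 7.12 in WT, 7.94 and 8.98 in HOXA9_KO, 8.2 and 6.71 in Bcat_KO, and 6.53 and 6.18 in PRMT1_KO. WT ranked highest and PRMT1_KO lowest without overlap, and the fold kept PRMT1_KO below WT but not Bcat_KO or HOXA9_KO. The score difference from WT was −1.22 ± 0.25 (SE) in PRMT1_KO (limma adjusted p = 0.124), −0.74 ± 0.25 in Bcat_KO (limma adjusted p = 0.206) and −0.36 ± 0.25 in HOXA9_KO (limma adjusted p = 0.488). No contrast passed after adjustment over all regions. With the lists as deposited the differences were −0.52, −0.19 and −0.05 in PRMT1_KO, Bcat_KO and HOXA9_KO. Reads at the summit numbered 23 and 15 in WT and 16 and 14 in PRMT1_KO.

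Another pair of Klrb1c regions was in all 8 strongest lists. The one 17.5 kb beyond the 3′ end (chr6:128760058-128761135) ranked 11492 and 8400 in WT, 13377 and 8191 in HOXA9_KO, 11236 and 9050 in Bcat_KO, and 15282 and 11694 in PRMT1_KO. The one 11.0 kb upstream, in the lncRNA Gm34755 (chr6:128798806-128799919), ranked 7463 and 16214 in WT, 14065 and 11991 in HOXA9_KO, 13783 and 9905 in Bcat_KO, and 17318 and 13682 in PRMT1_KO. PRMT1_KO ranked the first below both WT libraries, by −0.33 ± 0.23 (SE, limma adjusted p = 0.554), and every other comparison of these regions with WT overlapped.

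Among the regions that came and went, a narrow one 11.5 kb beyond the Klrb1c 3′ end (chr6:128766916-128767147) ranked 19899 and 13016 in PRMT1_KO and 22622 in Bcat_KO replicate 2, and no other library listed it. Its fold was 5.41 and 6.95 in PRMT1_KO, from 27 and 31 reads. A region 7.86 kb upstream (chr6:128796194-128796793) ranked 21457 in WT replicate 1, 25144 and 20064 in Bcat_KO, and 22122 and 16301 in PRMT1_KO, and no HOXA9_KO library listed it. No region lay at the annotated start of Klrb1c; the nearest upstream one, 1.37 kb away, was listed in Bcat_KO replicate 2 and both PRMT1_KO libraries, and the 2 intragenic ones were listed in HOXA9_KO replicate 1, one of them also in WT replicate 1.

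**Figure D4:**
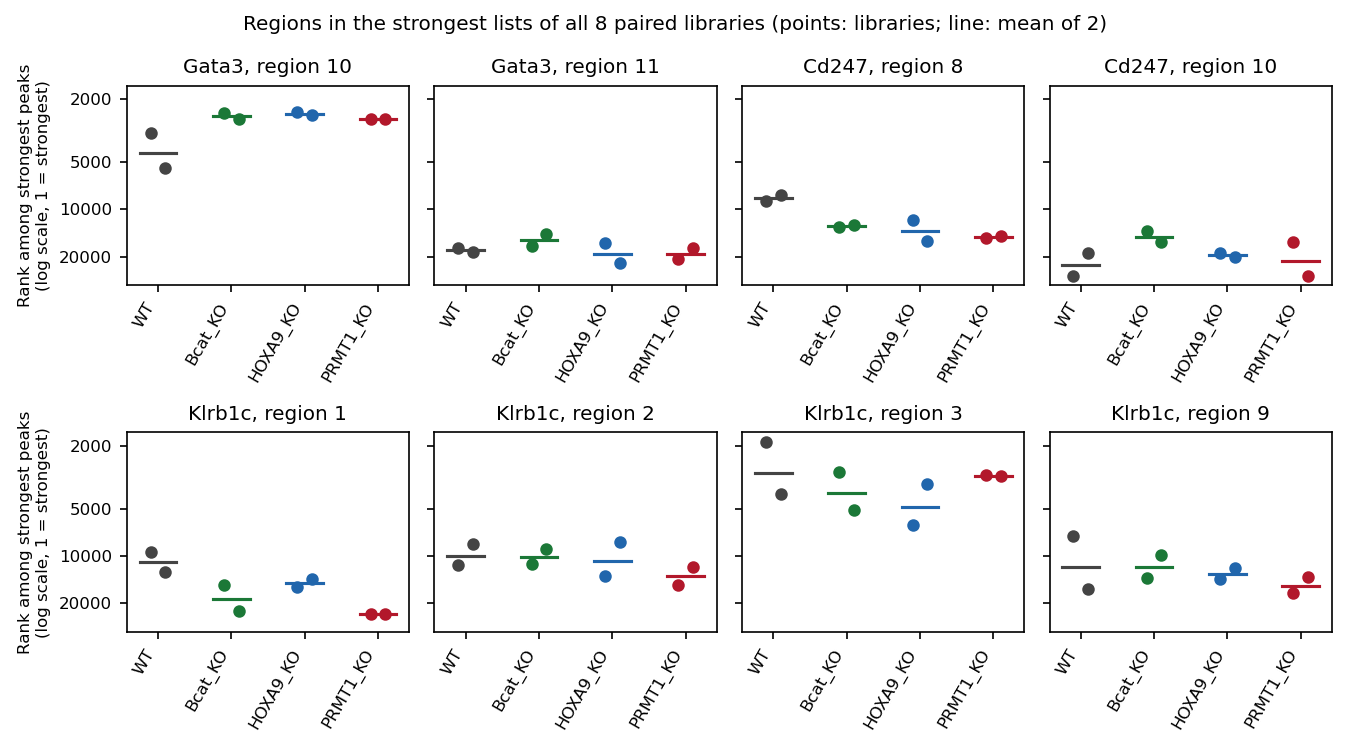
Rank in the strongest lists (log scale, 1 is strongest and at the top) of the 8 member regions present in all 8 paired libraries; points are libraries and lines the mean of 2. The Gata3 region upstream of the start is ranked higher in every mutant library than in WT, and the strongest Cd247 region and the Klrb1c region 24.4 kb beyond the gene are ranked lower, none of them past limma's adjusted threshold.

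Set against WT, few of these regions appeared or disappeared, and the counts were near the background. A region was counted when it was in the strongest lists of both libraries of one group and of neither of the other; with 2 libraries against 2 the smallest exact p is 0.333, and single regions therefore get no p. The 3 comparisons share the WT libraries. In Bcat_KO, 0 of 24 tested member regions were listed in the mutant alone and 1 in WT alone, where 5.09% and 4.09% of all 40564 tested regions were called so. In HOXA9_KO the counts were 0 and 2 of 24, against 6.06% and 4.69% of all regions. PRMT1_KO had 1 and 2 of 24, against 4.93% and 3.82% of all regions. The regions listed in WT alone were the weak one at the Gata3 start in all 3 comparisons and the Eomes region just inside the gene in HOXA9_KO and PRMT1_KO, and the one listed in PRMT1_KO alone was the narrow region beyond Klrb1c. None of them met a stricter call that asks for the strongest 14162 peaks in both libraries of one side. Of all tested regions, only 0.0823% to 0.508% met it in these comparisons. With the lists as deposited, no member region was in WT alone against HOXA9_KO and 1 was against PRMT1_KO, while 1, 4 and 2 were in Bcat_KO, HOXA9_KO and PRMT1_KO alone. The counts in WT alone were 4, 5 and 6 in the same order without WT replicate 1 and 4 in each without WT replicate 2, where a single WT library stands for the group. Shares of all regions are not given for the deposited lists or the left-out libraries, so these counts have no background beside them.

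By rank, the 8 regions in all strongest lists differed from WT in both directions, none past limma's threshold. Of these 8, 3 had both Bcat_KO ranks above both WT ranks and 2 had them below, where 23% and 26% of all 15951 regions did so. For HOXA9_KO the counts were 1 and 2, against 23.7% and 26.8%, and for PRMT1_KO 1 and 3, against 22.3% and 24.6%. The median score difference of the 8 was −0.02 in Bcat_KO, −0.12 in HOXA9_KO and −0.22 in PRMT1_KO, beside −0.02, −0.03 and −0.02 over all regions. In limma, 0 of 8 passed an adjusted p of 0.05 in any comparison with WT, where 0.0125% of all regions did in Bcat_KO, 0.357% in HOXA9_KO and 0.00627% in PRMT1_KO. At an unadjusted p under 0.05, 1, 1 and 2 of the 8 passed in the same order, where 16.7%, 17.9% and 14.3% of all regions did.

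Comparisons between mutants, which do not use WT, gave counts of 0 to 2 regions by strongest list. Between Bcat_KO and HOXA9_KO, 2 of 22 member regions were in Bcat_KO alone (Eomes just inside the gene and Klrb1c 7.86 kb upstream) and 1 in HOXA9_KO alone (Zap70 2.05 kb beyond the gene), against 3.78% and 4.02% of all regions. Between Bcat_KO and PRMT1_KO, 2 of 20 were in Bcat_KO alone, both at Eomes, and 0 in PRMT1_KO alone, against 3.01% and 3.35%. Between HOXA9_KO and PRMT1_KO, 0 of 21 were in HOXA9_KO alone and 2 in PRMT1_KO alone, both at Klrb1c, against 5.42% and 6.16%. In limma, 0 of 8 passed in each of these 3 comparisons, where 0%, 0% and 0.489% of all regions did, and 0, 0 and 1 had an unadjusted p under 0.05, beside 9.86%, 7.59% and 14.9% of all regions. The 1 was the Klrb1c region 24.4 kb beyond the gene, ranked higher in HOXA9_KO than in PRMT1_KO by 0.86 ± 0.25 (SE, limma adjusted p = 0.161). The median score difference of the 8 members was 0.1 for Bcat_KO minus HOXA9_KO, 0.32 for Bcat_KO minus PRMT1_KO and 0.16 for HOXA9_KO minus PRMT1_KO, beside −0.01, 0 and 0.01 over all regions. By rank, 4 of the 8 had both Bcat_KO ranks above both PRMT1_KO ranks and 0 had them below, against 19% and 19.4% of all regions. For Bcat_KO against HOXA9_KO these counts were 1 and 0, against 20.5% and 19.6%. HOXA9_KO against PRMT1_KO gave 2 and 1, against 24.1% and 24.3%.

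In the single dKO library the member regions were the Gata3 region upstream of the start, the Eomes region just inside the gene and the Klrb1c region 14.2 kb beyond the gene. When every list was cut to the dKO length of 10639, the Gata3 and Klrb1c regions were in all 9 lists and the Eomes region in the dKO alone. The strongest Cd247 region was then in both WT lists and no other. Its ranks were 8873 and 8068 in WT and 11717 to 15882 in the mutants, on either side of the cut. At Klrb1c, the region 24.4 kb beyond the gene was in WT replicate 1 alone. Those 17.5 kb beyond and 11.0 kb upstream were in some WT and some mutant lists. No share of all regions is given at this length.

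Other genes of T and NK cells were 41 in number, fixed as a list with earlier results of these data known. They held more regions listed in a mutant alone than in WT alone, as was also the case over all regions. They had 153 regions, 91 of them in a strongest list and 25 in all 8, and 17 of the 41 genes (41.5%) had a region in all 8. In Bcat_KO, 7 of 77 tested regions (9.09%) were listed in the mutant alone and 3 (3.9%) in WT alone, against 5.09% and 4.09% of all regions. In HOXA9_KO these were 9 of 84 (10.7%) and 3 (3.57%), against 6.06% and 4.69% of all regions. In PRMT1_KO they were 6 of 80 (7.5%) and 2 (2.5%), against 4.93% and 3.82%. Several genes held more than one of the called regions, so the regions are not independent.

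Cd28, the costimulatory receptor of T cells, held 3 of the called regions, 2 of them in all 3 mutants. The first (chr1:60745693-60746519) had no WT peak and folds of 9.28 and 7.58 in HOXA9_KO, 7.48 and 11.8 in Bcat_KO, and 11.5 and 7.0 in PRMT1_KO. The second (chr1:60755727-60756189) had a fold of 3.83 in WT replicate 1 outside the strongest list, and of 8.81 and 14.1 in HOXA9_KO, 5.48 and 6.44 in Bcat_KO, and 10.6 and 6.45 in PRMT1_KO. Both were thus listed in every mutant library. Id2, an inhibitor of E-protein factors needed for NK and innate lymphoid cells, had a region (chr12:25098687-25099008) with no WT peak and folds of 4.52 to 6.62 in the 6 mutant libraries. Nkg7, a cytotoxic granule protein, had 1 region listed in all 3 mutants and not in WT, at folds of 4.22 to 5.42, and another in the strongest lists of WT alone, at folds of 4.39 and 4.3, where 4 mutant libraries listed peaks at 3.36 to 4.43 outside their strongest lists. A Cd226 region, of an activating receptor, was in the strongest lists of WT alone, at folds of 5.68 and 5.44, and HOXA9_KO replicate 1 listed it at 3.9.

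Remaining calls against WT at these genes were made in 1 or 2 of the comparisons. In HOXA9_KO they included Il18r1, the interleukin-18 receptor chain, with folds of 6.4 and 7.29, Prf1 (perforin) with 6.76 and 5.63, and Il2ra with 4.8 and 5.07, all without a WT peak. At the same places other mutants had peaks in 1 or both libraries, such as 4.13 and 6.93 for Il18r1 in PRMT1_KO and 5.35 and 4.02 for Prf1 in Bcat_KO. Set directly against each other, HOXA9_KO alone had the Il18r1 region against Bcat_KO and the Prf1 region against PRMT1_KO in the strongest lists. Outside those lists, Bcat_KO replicate 1 had the Il18r1 region at a fold of 3.47 and PRMT1_KO replicate 2 the Prf1 region at 3.71. Calls between mutants went both ways. Against Bcat_KO, 3 of 76 tested regions were in HOXA9_KO alone and 4 in Bcat_KO alone, beside 4.02% and 3.78% of all regions. Against PRMT1_KO, 4 of 80 were in HOXA9_KO alone and 6 in PRMT1_KO alone, beside 5.42% and 6.16%. Between Bcat_KO and PRMT1_KO, 1 of 78 was in Bcat_KO alone and 4 in PRMT1_KO alone, beside 3.01% and 3.35%. Runx3, the runt factor of cytotoxic cells, had 1 region in WT alone against Bcat_KO and HOXA9_KO, although all 8 libraries listed a peak there, at folds of 4.6 and 4.29 in WT and 3.85 to 4.83 in those mutants. Zbtb16 in PRMT1_KO, Cd8b1 in Bcat_KO, Nfil3 in both of these groups, Runx3 in Bcat_KO and HOXA9_KO, and the third Cd28 region in HOXA9_KO made up the rest of the calls against WT.

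Of the other cell types, mature T marker genes gave 2 and 4 regions in the strongest lists of WT, 3 and 2 in HOXA9_KO, 5 and 5 in Bcat_KO, and 5 and 2 in PRMT1_KO. Mature NK marker genes, 3 of which are members here, gave 9 and 7 in WT, 8 and 7 in HOXA9_KO, 9 and 11 in Bcat_KO, and 9 and 8 in PRMT1_KO. These ranges overlapped between WT and each mutant except for the T markers in Bcat_KO, and their part in the values above was not tested. Cd3e, Cd3g, Cd8a, Ncr1 and Gzma had no region in any library, and Cd4 had none in a strongest list. By summed rank strength over a gene's regions, the protein-coding genes most like the mean of the 9 members across the 8 paired libraries were Tipin (mean absolute difference 0.0258), Hnrnpm (0.0268), Saal1 (0.0343), Slc35d1 (0.0363) and Fam50a (0.0387).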

How the data were processed

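Per the submitters' processing notes, the authors used Bowtie2 2.4.2, SAMtools 1.14, Picard 2.27.4 and MACS2 (version not given in the sources used here) on GRCm38/mm10, and the names of the peaks record removal of unmapped and duplicate reads. The authors deposited 1 peak list per library, called in each library alone. Each deposited peak has an integer score, a fold (ratio) of its summit over local background, a −log10 p-value, a −log10 q-value and a summit offset in bases; these are the authors' values, not normalized between libraries, so they were used only to describe peaks and rank them within a list. The Tn5 shift setting is not given in the sources used here. Reads at a summit were recovered from fold and p.

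Peaks sharing at least 1 bp were merged into regions and the 8 paired lists shortened to 28325 peaks. Normal scores of the ranks were fitted with limma 3.58.1 (two-sided, Benjamini-Hochberg over 15951 regions, all 4 groups in 1 fit) in R 4.3.3; lists were handled in Python 3.11.15. The scripts were tested on simulated data. The 9 members and all gene lists were chosen with earlier results of these data known. Regions given in every library were those within 1 kb of a gene's 5′ end, the strongest of each gene, those in all 9 lists and those called in a comparison; a few more were added after their values were seen. Gene spans, starts and windows came from RefSeq tables (GRCm38.p6), which give no exons, so places are given as distances only. The alternatives tried were other list lengths, a −log10 q of at least 5, ranking by fold, summit windows of 100 bases, a 10 kb limit, a stricter call, a replicate block and leaving out each library.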

Additional observations from a re-analysis of the deposited data

How the results depend on the processing

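None of the 24 rank score differences of the 8 member regions from WT passed limma's threshold, as reported or under an alternative, but 28 of 318 values under an alternative had the other sign. With the lists as deposited, where the median over all regions was 0.23, 0.16 and 0.19 in Bcat_KO, HOXA9_KO and PRMT1_KO, the Gata3 region 10.8 kb upstream of the start had 0.28 in HOXA9_KO and 0.32 in PRMT1_KO. The Klrb1c region 17.5 kb beyond the gene then had 0.25 in Bcat_KO and 0.14 in HOXA9_KO, the one 14.2 kb beyond it 0.01 in Bcat_KO and 0.11 in PRMT1_KO, and the one 11.0 kb upstream 0.31 in Bcat_KO, 0.15 in HOXA9_KO and 0.03 in PRMT1_KO. Ranked by fold, the region 17.5 kb beyond had 0.26 in Bcat_KO and 0.12 in HOXA9_KO and the one 14.2 kb beyond 0.04 in PRMT1_KO; at a −log10 q of at least 5, the one 11.0 kb upstream had 0.04 in Bcat_KO. Leaving out 1 library in turn, that Gata3 region ran from −0.39 to 0.17 in HOXA9_KO and −0.24 to 0.04 in PRMT1_KO, and the Cd247 region 67.4 kb from the start from −0.07 to 0.98 in HOXA9_KO and −0.59 to 0.78 in PRMT1_KO. The Klrb1c region 17.5 kb beyond the gene ran from −0.17 to 0.13 in Bcat_KO and −0.32 to 0.17 in HOXA9_KO, the one 14.2 kb beyond from −0.41 to 0.02 in Bcat_KO and −0.27 to 0.16 in PRMT1_KO, and the one 11.0 kb upstream from −0.42 to 0.39 in Bcat_KO, −0.53 to 0.28 in HOXA9_KO and −0.75 to 0.06 in PRMT1_KO. The cause of these changes of sign was not tested.

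The counts by list also depended on the list. Except for the stricter call, no share of all regions is given beside them. With the lists as deposited, mean member regions per library were 20.5, 23.0, 24.0 and 23.0 in WT, Bcat_KO, HOXA9_KO and PRMT1_KO, gained regions against WT numbered 1, 4 and 2 in Bcat_KO, HOXA9_KO and PRMT1_KO, lost ones 0 in HOXA9_KO and 1 in PRMT1_KO, and regions in one mutant only 0 for Bcat_KO against PRMT1_KO and 5 for HOXA9_KO against PRMT1_KO. At a length of 10639 the means were 4.5, 3.0, 2.5 and 2.0, lost regions 1 each in HOXA9_KO and PRMT1_KO, gained in PRMT1_KO 0, and all 3 comparisons between mutants gave 0. At a −log10 q of at least 5 the means were 8.5, 9.5, 8.0 and 7.0, lost regions 0, 0 and 1, gained in PRMT1_KO 0, and between mutants 0, 0 and 1. Ranked by fold, the means were 13.5 in Bcat_KO and 12.0 in PRMT1_KO, lost regions 0, 0 and 1, and gained 1 in HOXA9_KO and 2 in PRMT1_KO. Within 10 kb the means were 12.0, 10.5, 10.0 and 8.5, gained in PRMT1_KO 0 and HOXA9_KO against PRMT1_KO 1. The stricter call gave 0 throughout, where only 0.0293% to 0.508% of all tested regions met it.

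Leaving out 1 library in turn gave 0 to 3 gained regions in Bcat_KO, 0 to 3 in HOXA9_KO and 1 to 3 in PRMT1_KO, and 1 to 4, 2 to 5 and 2 to 6 lost ones. Lost counts were 4, 5 and 6 without WT replicate 1 and 4, 4 and 4 without WT replicate 2; gained counts were 1, 1 and 2 and 2, 1 and 2. Gained counts reached 3 without Bcat_KO replicate 1, HOXA9_KO replicate 2 or PRMT1_KO replicate 2. Between mutants the ranges were 3 to 8 for Bcat_KO against HOXA9_KO, 3 to 5 for Bcat_KO against PRMT1_KO and 3 to 6 for HOXA9_KO against PRMT1_KO. The first rose to 5 without Bcat_KO replicate 1 and 8 without HOXA9_KO replicate 2, the second to 4 without Bcat_KO replicate 2 and 5 without PRMT1_KO replicate 1, and the third to 6 without HOXA9_KO replicate 2 and 5 without PRMT1_KO replicate 2. A group left with 1 library asks less of a region, which raises such counts by construction. No share of all regions is given for these settings either.

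With the replicate block, 0 of 8 members passed limma, as without it, while the calls over all regions moved from 2, 57, 1 and 78 to 0 each in Bcat_KO, HOXA9_KO and PRMT1_KO against WT and in HOXA9_KO against PRMT1_KO. Rank score deviations of same-numbered libraries correlated between −0.01 and 0.04, so they showed no shared shift in rank. Whether same-numbered libraries were prepared together is not given, and these correlations cannot tell. Limma's calls over all regions also moved with list length, to 556, 427 and 87 against WT with the lists as deposited and 7, 3 and 7 at 10639; the cause was not tested. Depth limits every absence: the weakest listed peaks had 6 to 7.5 reads in the paired libraries and 4 in the dKO.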
